A study of Mus musculus with 12 samples.

Results

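Male mouse germ cells taken from the fetal testis were compared with wild-type germline stem cells (GSCs), the cultured descendants of spermatogonial stem cells. Members were chosen by label: the 2 libraries of germ cells at embryonic day 16 (E16), the 2 at embryonic day 17 (E17) and the 2 of wild-type GSCs, 6 of the 12 libraries of the series. The GSCs were of the line Acrosin-EGFP; beta-Actin-EGFP (AAG), genotype WT, and none of the 6 libraries is from a Stag3 knockout by its label. The fetal germ cells came from testes of Vasa-RFPTg/0 mice, a transgene named for a red fluorescent protein and for Vasa (Ddx4), a gene of germ cells. Polyadenylated RNA was read by SC3-seq, which amplifies cDNA from a small amount of RNA (1 ng here) and sequences the 3′ ends of the transcripts. The labels do not state which cells were sorted, how many mice were pooled or how the GSCs were grown.

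As background, male germ cells stop dividing in the fetal testis, turn off the pluripotency genes they carried from earlier development, and remethylate a genome that had been stripped of most of its cytosine methylation. That methylation is written by DNMT3A with its cofactor DNMT3L, and at transposons it is steered by piRNAs, small RNAs held by PIWI proteins, of which PIWIL4 (MIWI2) enters the nucleus. GSCs are dividing cells that depend on GDNF and FGF signals and on transcription factors such as ZBTB16 and ETV5. The comparison sets fetal cells of the animal against stem cells in culture, and developmental stage, culture, mouse line and reporter cannot be told apart in it.

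The libraries held between 1938644 and 4596607 counts, more in GSCs than in fetal germ cells, and 16201 and 16551 genes had at least 1 count in the GSC libraries against 20217 to 22378 in the fetal ones. Levels are given in reads per 1000000 reads of genes outside the mitochondrial genome (RPM). Differences are log2 fold changes, fetal over GSC, with their standard error (SE), from edgeR's quasi-likelihood test in 1 fit of the 6 libraries, and a gene was called where the Benjamini-Hochberg adjusted p was under 0.05. Values in brackets after levels are this log2 fold change ± SE and this adjusted p. The SE was worked back from the test, as the absolute log2 fold change over the square root of the F statistic. The first principal component, 84.9% of the variance, separated fetal from cultured libraries, and the second, 7.17%, spread the fetal libraries, with the 2 E17 libraries at one end, the second E16 library at the other and the first E16 library between them. Whether the 2 libraries of a group came from different cultures or animals is not stated. The p-values then cover only the spread between these libraries, which may be technical.

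Of 14792 genes tested, 6084 (41.1%) were higher in fetal germ cells and 4716 (31.9%) were lower. With a required change of more than 1 on the log2 scale, 4209 (28.5%) were higher and 2097 (14.2%) lower. Against GSCs, E16 alone gave 5845 higher genes (39.5%) and 4301 lower (29.1%), and E17 alone gave 5767 (39.0%) and 4380 (29.6%). Both use the same GSC libraries as control. For 5808 of the genes called higher in fetal germ cells, all 4 fetal libraries lay above both GSC libraries. For 4147 of those called lower they lay below both. Every list below is to be read against these shares. The scale of the comparison matters: ERCC spike-in RNA took 3.12% and 2.90% of the counts in GSCs, 1.22% and 1.52% at E16 and 0.194% and 0.231% at E17. Scaled by ERCC totals, the median gene moved from 0.20 to 2.84 on the log2 scale, 13599 genes were higher and 118 lower. By age the median gene was then at 1.34 at E16 and 4.35 at E17. Each fetal value with ERCC totals is thus the mean of 2 unlike shifts and need not hold at E16 alone. Changes are therefore stated relative to the bulk of the genes. For the lists after the cell type markers the median is given on both scales, to be set against 0.20 and 2.84.

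**Figure D1:**
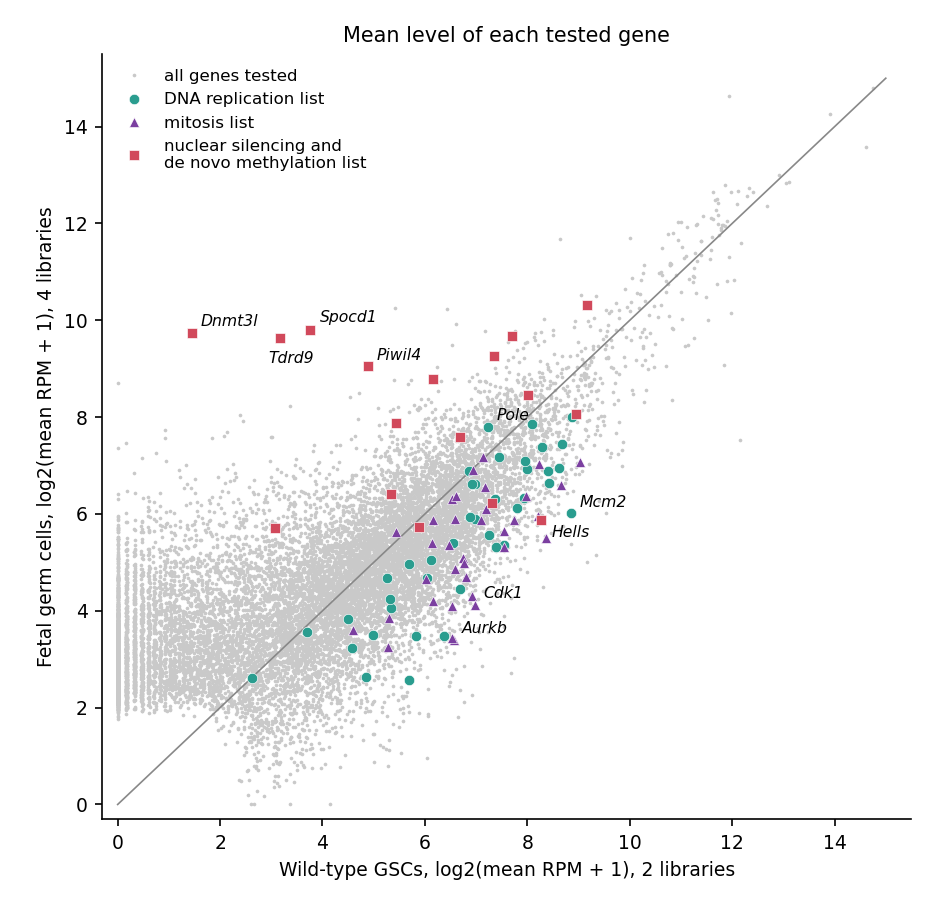
Mean level of each tested gene in the 2 wild-type GSC libraries (x axis) and the 4 fetal germ cell libraries (y axis), both as log2(RPM + 1), with 3 gene lists marked. Genes of nuclear silencing lie mostly above the line of equal level and most genes of mitosis and DNA replication lie below it. With ERCC totals as the scale the medians of the last 2 lists turn positive for the mean of the 2 fetal ages.

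The germ cell label was checked first. Ddx4, the RNA helicase that marks germ cells, was at 556 and 629.7 RPM in GSCs, 604 and 555 RPM at E16 and 636 and 597 RPM at E17, and its difference did not pass the test (-0.13 ± 0.10, adjusted p = 0.25). The levels overlapped between all 3 groups. Of 10 tested germ cell markers, 3 were higher and 3 lower in fetal cells. Dazl, a germ cell RNA-binding protein, was at 1537 and 1786 RPM in GSCs and 441 to 637 RPM in the fetal libraries (-1.79 ± 0.10, adjusted p = 6.7e-12), while Mael, a piRNA pathway factor, was at 567 and 579 RPM and 993 to 1377 RPM (1.000 ± 0.11, adjusted p = 1.6e-07).

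Most tested markers of other testis cells were higher in the fetal libraries. Summed over the list, Sertoli cell markers were at 38.1 to 40.4 RPM in GSCs and 161 to 192 RPM in fetal germ cells, with 7 of 10 tested genes higher and 1 lower. Fetal Leydig markers were at 1.91 to 2.24 RPM in GSCs and 31.7 to 40.5 RPM in fetal germ cells (2 of 3 higher), endothelial markers at 5.48 to 6.26 RPM in GSCs and 81 to 149.7 RPM in fetal germ cells (5 of 6 higher) and macrophage markers at 1.63 to 1.99 RPM in GSCs and 10.9 to 20.4 RPM in fetal germ cells (2 of 2 higher, or 1 with either GSC library left out). Peritubular myoid markers were at 47.4 to 52.1 RPM in GSCs and 139 to 202 RPM in fetal germ cells (5 of 6 higher), fibroblast markers at 281 to 294 RPM in GSCs and 334 to 609.7 RPM in fetal germ cells (4 of 10 higher, or 6 of these 10 without the second E16 library) and erythroid markers at 0.249 to 0.272 RPM in GSCs and 97.1 to 275 RPM in fetal germ cells (5 of 5 higher). The summed ranges did not overlap between GSCs and fetal cells for any of these 7 lists. In the fibroblast list 40% of tested genes were higher, near the 41.1% of all genes. Its median log2 fold change was 0.57 (3.23 with ERCC totals), against 0.20 and 2.84 for all genes. Members tested are those that passed a filter on low counts, which a gene at 0 in GSCs passes through the fetal libraries alone.

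Single markers show the scale of this. Clu, a secreted chaperone abundant in Sertoli cells, was at 1.63 and 1.5 RPM in GSCs, 109.8 and 96.8 RPM at E16 and 83.8 and 96.8 RPM at E17. Cyp11a1, the first enzyme of steroid synthesis in Leydig cells, was at 0 in GSCs and at 18.9 to 26.7 RPM in fetal cells, at least 30.5-fold higher. Amh, the Sertoli cell hormone of the fetal testis, Insl3 of Leydig cells and Cx3cr1 of macrophages were at 0 in all 6 libraries, while Wt1 of Sertoli cells was lower in fetal cells (-1.49 ± 0.36, adjusted p = 0.00098). The beta globin gene Hbb-bs was at 0 in GSCs and 56.2 and 103 RPM at E16 and 22 and 23.5 RPM at E17. In bulk RNA, more cells of a type and more RNA per cell cannot be told apart. The part of other cell types in the results that follow was not tested.

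Among genes called and separated in every library, the 15 largest rises were of genes at or near 0 in GSCs. Dpep3, a membrane dipeptidase of the testis (chr8:105973520-105979419, GRCm38.p6), had no count in either GSC library and was at 169 and 148 RPM at E16 and 165 and 173 RPM at E17. It was at least 209.6-fold higher, taking 3 counts per library, averaged over the group, as the most a count of 0 allows. Nme8, a protein of the nucleoside diphosphate kinase family, had 1 count in GSCs and was at 207 and 203 RPM at E16 and 157 and 136 RPM at E17, a ratio of 1379 (exact 95% counting interval 247 to 54500.4). Such bounds and intervals cover counting error only.

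The other 13 genes had no count in GSCs, and their lower bounds ran from 55.6-fold to 107-fold. They include genes known mainly from other tissues: the collagen VI chains Col6a4 (at least 107-fold) and Col6a5 (61.5-fold), the muscle genes Speg (77.7-fold) and Tnnc2 (74.8-fold), the potassium channel Kcnn4 (66.7-fold), the phosphatase Ptpn5 (65.1-fold) and the T-box factor Tbx19 (63.9-fold). Also among them were Clca1 (68.5-fold), Itih2 (62-fold), Urah (57.6-fold), Enpp1 (57.3-fold) and Treml1 (55.6-fold). Col6a4 was at 51.2 and 52.1 RPM at E16 and 114 and 118 RPM at E17. Kcnn4 was at 48.2 to 55.6 RPM over the 4 fetal libraries. Of the 30 genes with the largest rises and falls, 8 (among them Col6a4, Ptpn5, Urah, Gbp2, Smoc2, Klf9 and Exosc4) overlap other annotated genes, and their reads may be shared, because no source used here tells whether the counting used strand.

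Genes silent in one group and present in the other were unequal in number. Of 17819 genes with no count in either GSC library, 1489 were at 1 RPM or more in all 4 fetal libraries and 51 at 20 RPM or more. The 51 genes took 0.229% to 0.296% of fetal gene counts. Of 10155 genes with no count in the 4 fetal libraries, 21 were at 1 RPM or more in both GSC libraries and 0 at 20 RPM or more. The 2 sets ask for 0 in different numbers of libraries, 2 of GSCs with 7685900 counts together (outside the mitochondrial genome) and 4 of fetal cells with 8494449, so their sizes are not directly comparable.

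The 15 largest falls were of genes at a low level, not at 0, in fetal cells. Stra8, the retinoic acid target of cells about to enter meiosis, was at 205 and 203 RPM in GSCs, 5.96 and 1.76 RPM at E16 and 9.25 and 5.23 RPM at E17 (-5.46 ± 0.22, adjusted p = 1.4e-13). Cirbp, a cold-inducible RNA-binding protein, was at 191 and 232 RPM in GSCs and 4.22 to 9.82 RPM in fetal cells (-5.09 ± 0.19, adjusted p = 4.3e-14). Gbp2, an interferon-inducible GTPase, was at 56.1 and 73 RPM in GSCs and 0.497 to 1.16 RPM in fetal cells (-6.15 ± 0.32, adjusted p = 5.6e-12). Smoc2, a matrix protein, was at 106 and 92 RPM in GSCs and 2.11 to 3.14 RPM in fetal cells (-5.42 ± 0.24, adjusted p = 5.8e-13). Klf9, a zinc finger factor, was at 66.7 and 65 RPM in GSCs, 0.994 and 0.352 RPM at E16 and 4.62 and 4.19 RPM at E17 (-5.40 ± 0.29, adjusted p = 7.2e-12).

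Also among them were Sephs2 (log2 fold change -6.97 ± 0.52), which makes the selenium donor of selenoproteins, Usf1 (-5.84 ± 0.43), an E-box binding factor, Pigm (-5.60 ± 0.43) of GPI anchor synthesis and Exosc4 (-4.83 ± 0.30) of the RNA exosome. Zfp703 (-5.48 ± 0.37), Irf2bp1 (-4.91 ± 0.42), Eid2 (-4.90 ± 0.43) and Foxc2 (-4.84 ± 0.38) code for transcriptional regulators. The remaining 2, Uhrf1 and Mycn, are described with their pathways. Of these 15 genes, 5 (Sephs2, Pigm, Irf2bp1, Eid2 and Foxc2) have a single exon, against 0 of the 15 largest rises. Among 8380 genes at 20 RPM or more in the higher group, 67 have 1 exon. All 15 genes of the largest falls were lower than in GSCs with ERCC totals as well.

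Genes of nuclear transposon silencing and de novo methylation were mostly higher in fetal cells. All 17 found in the tables were tested, and 13 were higher and 3 lower, 9 of them by more than 1 on the log2 scale and 2 lower by as much, with a median of 1.77 (4.43 with ERCC totals). This list was chosen with earlier results of these data known, so its direction is a description. Dnmt3l, the cofactor of the de novo methyltransferases, was at 2.72 and 0.748 RPM in GSCs, 885 and 995 RPM at E16 and 776 and 769 RPM at E17. Every fetal library was far above both GSC libraries, and the log2 fold change was 8.80 ± 0.24 (adjusted p = 8.9e-16). Dnmt3l overlaps Aire on the genome.

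Tdrd9, a Tudor domain helicase of piRNA-guided silencing, was at 7.62 and 8.47 RPM in GSCs, 831 and 827 RPM at E16 and 756 and 771 RPM at E17 (6.48 ± 0.16, adjusted p = 2.6e-16). Spocd1, which links PIWIL4 to the methylation machinery, was at 12.3 and 12.7 RPM in GSCs, 914 and 932 RPM at E16 and 842 and 851 RPM at E17 (6.002 ± 0.15, adjusted p = 2.6e-16). Piwil4, the nuclear PIWI protein itself, was at 27.2 and 30.4 RPM in GSCs, 679.8 and 586 RPM at E16 and 419 and 441 RPM at E17 (4.03 ± 0.14, adjusted p = 1.6e-14). For all 3 genes the fetal libraries lay close together, within a range smaller than their distance to GSCs, and E16 was above E17.

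Smaller rises were seen in the rest of the pathway. Dnmt3a, the catalytic partner of DNMT3L, was at 68.9 and 72 RPM in GSCs and 369 to 487 RPM in fetal cells (2.49 ± 0.13, adjusted p = 4.7e-12). Morc1, a GHKL ATPase of transposon repression, was at 42.2 and 42.9 RPM, then 315 and 295 RPM at E16 and 169 and 163 RPM at E17 (2.26 ± 0.13, adjusted p = 2.4e-11). The H3K9 methyltransferase gene Ehmt2 was at 219.7 and 193 RPM in GSCs, 693 and 556 RPM at E16 and 962 and 1077 RPM at E17 (1.81 ± 0.12, adjusted p = 1e-10). Tex15, a binding partner of PIWIL4, was at 161 and 165 RPM in GSCs and 541 to 650.5 RPM in fetal cells (1.77 ± 0.11, adjusted p = 6.4e-11). Dnmt3b, the other de novo enzyme, did not pass the test (-0.31 ± 0.20, adjusted p = 0.16), with 62.9 and 52.6 RPM in GSCs and 32.7 to 60.1 RPM in fetal cells. Without the first E16 library it was lower (-0.54, adjusted p = 0.0017).

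The 3 lower members were Hells, a chromatin remodeller that helps methylation, Setdb1, an H3K9 methyltransferase, and Trim28, the corepressor that recruits it. Hells was at 263 and 349.6 RPM in GSCs and 25 to 82.6 RPM in fetal cells (-2.63 ± 0.19, adjusted p = 5e-10). Setdb1 had a log2 fold change of -1.24 ± 0.15 (adjusted p = 4.1e-07) and Trim28 of -1.02 ± 0.10 (adjusted p = 4.6e-08). The fetal values of all 3 lay below both GSC libraries. With ERCC totals Setdb1 and Trim28 were above GSCs and Hells was nearly level with them.

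Maintenance of methylation moved the other way. On the scale used here, Uhrf1, which brings DNMT1 to newly copied DNA, was at 106 and 134 RPM in GSCs, 1.99 and 2.11 RPM at E16 and 7.51 and 3.66 RPM at E17 (-5.27 ± 0.24, adjusted p = 8.2e-13). Dnmt1, the maintenance methyltransferase, was at 247 and 238 RPM in GSCs and 65.4 to 72.2 RPM in fetal cells (-1.96 ± 0.12, adjusted p = 4.6e-11). No fetal library reached the level of a GSC library for either gene. Over the list of maintenance and erasure, 1 of 10 tested genes was higher (Tet1, at under 7 RPM in every library, a call lost when either GSC library, the second E16 library or either E17 library was left out) and 6 were lower, with a median of -1.15 (1.47 with ERCC totals).

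**Figure D2:**
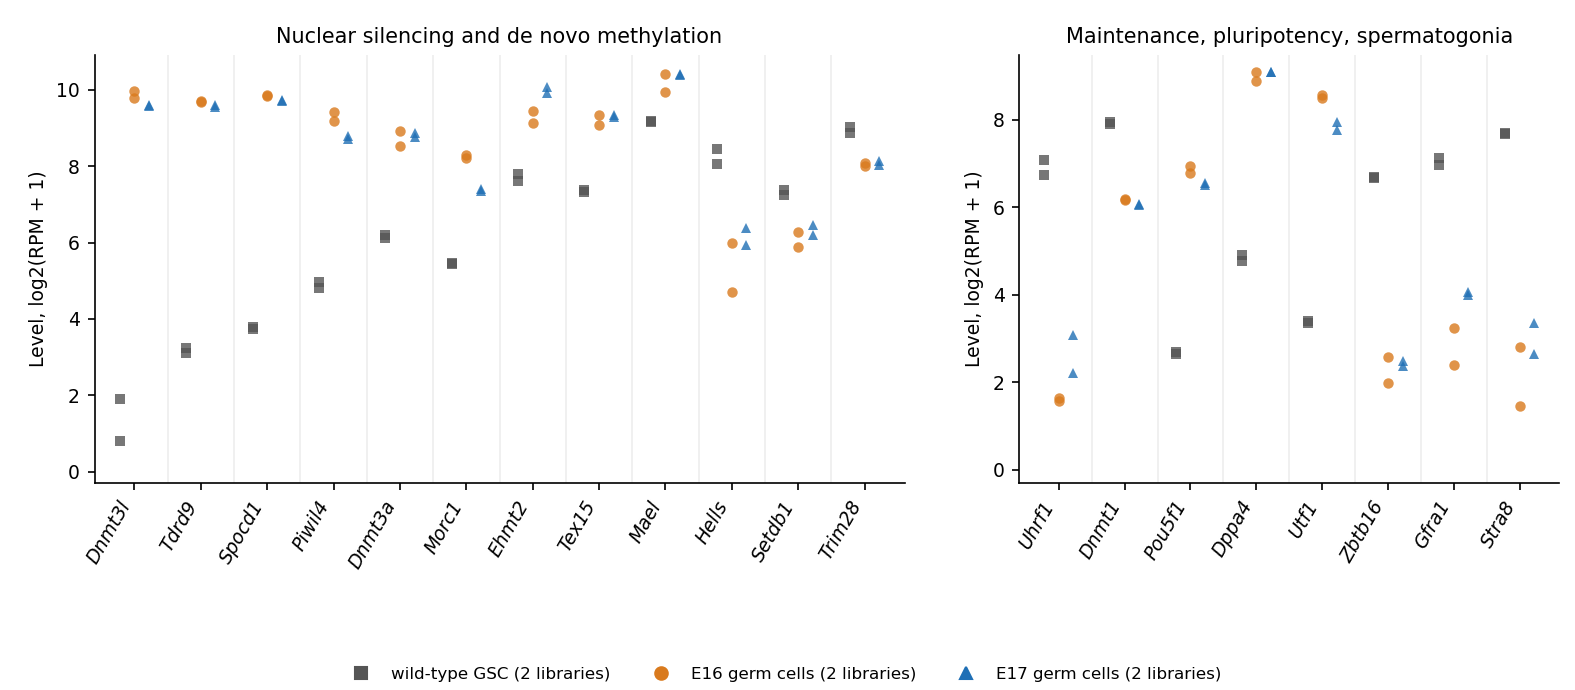
Levels in each library, as log2(RPM + 1), of genes of nuclear silencing and de novo methylation (left panel) and of methylation maintenance, pluripotency and spermatogonial state (right panel); each point is 1 library. Dnmt3l, Tdrd9, Spocd1 and Piwil4 sit far above the GSC libraries at E16 and E17, while Uhrf1, Zbtb16, Gfra1 and Stra8 sit far below them.

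Cytoplasmic piRNA genes, which make and load piRNAs outside the nucleus, were near the median of all genes: 11 of 23 tested were higher and 6 lower, with a median of 0.20 (2.86 with ERCC totals). Piwil2, the cytoplasmic PIWI partner of the fetal pathway, was at 256 and 255 RPM in GSCs, 719 and 643 RPM at E16 and 796 and 842 RPM at E17 (1.41 ± 0.11, adjusted p = 6.9e-10). Gpat2, needed for piRNA production, had a log2 fold change of 1.08 ± 0.11 (adjusted p = 8.4e-08), and Btbd18, a regulator of pachytene piRNA loci, of 2.34 ± 0.23 (adjusted p = 4.2e-08). Mybl1, the transcription factor of pachytene piRNA precursors, was at 1.09 and 0 RPM in GSCs and 9.94 to 15 RPM in fetal cells (4.28 ± 0.69, adjusted p = 1.9e-05). On the lower side, Wdr77, partner of the arginine methyltransferase that modifies PIWI proteins, was at 309 and 293 RPM in GSCs and 73.2 to 101 RPM in fetal cells (-1.96 ± 0.12, adjusted p = 2.4e-11), and Tdrkh, a Tudor protein of mitochondria, had one of -1.35 ± 0.13 (adjusted p = 1.5e-08).

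Cell division genes were lower in fetal cells relative to the bulk of genes. With ERCC totals the medians of both lists, for the mean of the 2 ages, were above 0. Of 35 genes of mitosis, all tested, 0 were higher and 32 lower, 25 of them by more than 1 on the log2 scale, with a median of -1.90 (0.72 with ERCC totals). In 30 of the lower genes the 4 fetal libraries all lay below both GSC libraries, as in 4147 of all 14792 genes tested. Of 40 genes of DNA replication, 1 was higher and 36 lower, 23 by more than 1, with a median of -1.35 (1.30 with ERCC totals). On either scale both medians lay below that of all genes. Before ERCC scaling the medians of mitosis and replication were -1.80 and -1.26 at E16 and -1.83 and -1.48 at E17. ERCC totals moved the median gene by 1.13 at E16 and by 4.15 at E17. List medians with ERCC totals were not computed for each age.

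Cdk1, the kinase that drives entry into mitosis, was at 114 and 136 RPM in GSCs, 13.9 and 21.1 RPM at E16 and 17.3 and 13.6 RPM at E17 (-3.04 ± 0.19, adjusted p = 5.8e-11). Aurkb, the kinase of the chromosomal passenger complex, was at 89.6 and 97.9 RPM in GSCs, 8.94 and 7.74 RPM at E16 and 12.7 and 8.9 RPM at E17 (-3.44 ± 0.20, adjusted p = 1.9e-11). Its partner Birc5 was at 99.4 and 84 RPM in GSCs, 9.94 and 15.8 RPM at E16 and 8.09 and 5.76 RPM at E17 (-3.39 ± 0.22, adjusted p = 9.3e-11). The groups did not overlap for any of the 3. Mki67, the proliferation marker, was at 124 and 116 RPM in GSCs and 12.4 to 25.1 RPM in fetal cells (-2.82 ± 0.18, adjusted p = 6.5e-11). Top2a, the topoisomerase of dividing cells, was at 537 and 511 RPM in GSCs and 118 to 144 RPM in fetal cells (-2.12 ± 0.11, adjusted p = 3e-12). Cenpa, the centromeric histone, was at 343 and 311 RPM in GSCs and 35.6 to 51.7 RPM in fetal cells (-3.04 ± 0.13, adjusted p = 4e-13).

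The 3 mitosis genes not called were Bub1 of the spindle checkpoint (-0.17 ± 0.13, adjusted p = 0.22), Cenpf of the kinetochore (-0.10 ± 0.13, adjusted p = 0.51) and Mybl2, a regulator of G2 genes (0.05 ± 0.17, adjusted p = 0.8). Bub1 was at 124 and 119 RPM in GSCs and 108 to 127 RPM in fetal cells, and the groups overlapped. Mybl2 was at 42.7 and 41.9 RPM in GSCs and 47.2 to 49.2 RPM in fetal cells.

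Among replication genes, Mcm2 of the replicative helicase was at 456 and 468 RPM in GSCs, 66.6 and 58.4 RPM at E16 and 72.8 and 57 RPM at E17 (-3.002 ± 0.12, adjusted p = 9.6e-14). Its helicase partner Mcm7 differed less, at 477 and 462 RPM in GSCs and 241 to 269.5 RPM in fetal cells (-1.01 ± 0.10, adjusted p = 4e-08), although the groups did not overlap. Rrm2, which with RRM1 makes deoxynucleotides, was at 55.5 and 45.4 RPM in GSCs and 2.98 to 6.8 RPM in fetal cells (-3.47 ± 0.27, adjusted p = 1.3e-09). Tyms, the thymidylate synthase, was at 89.8 and 74.5 RPM in GSCs and 7.51 to 13 RPM in fetal cells (-3.16 ± 0.21, adjusted p = 1.2e-10). Orc1 of the origin recognition complex was at 48.2 and 62.8 RPM in GSCs and 3.52 to 16.2 RPM in fetal cells (-2.73 ± 0.26, adjusted p = 1.9e-08). The 1 gene called higher was Pole, the leading-strand polymerase, at 144 and 156 RPM in GSCs, 219 and 193 RPM at E16 and 233 and 245 RPM at E17 (0.42 ± 0.11, adjusted p = 0.0028). Without the first GSC library its adjusted p was 0.055.

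Promoters of some of these genes are shown because cell cycle promoters are known to carry short shared motifs. A set of 4 motifs was searched on both strands in the RefSeq promoters of GRCm38.p6 (250 bases before to 50 after the start): the CHR element TTTGAA, the CCAAT box, an E2F core (TTTCCCGC, TTTCGCGC, TTTGCCGC or TTTGGCGC) and the E-box CACGTG. CHR letters were in 20 of 27 mitosis promoters (74.1%) and in 12.2% of the promoters of all 11837 tested genes that have one. The CCAAT box was in 77.8% of mitosis promoters and 38.4% of all. The E2F core was in 13 of 32 replication promoters (40.6%), 2 of 27 mitosis promoters (7.41%) and 3.86% of all, and CHR in 12.5% of replication promoters. In the silencing list the E-box was in 4 of 13 promoters (30.8%), against 10.1% of all. By direction, CHR was in 12.9% of promoters of genes called higher and 12.6% of those called lower, and the E-box in 9.11% and 10.4%. For the CCAAT box these shares were 34.9% and 41.9%, and for the E2F core 2.47% and 5.68%. A match is a description of letters, not a bound site or a cause. The 200 bases before the start are given 5′ to 3′, with these motifs in capitals on either strand, for Cdk1 (chr10:69352913-69353112 on the minus strand) and Top2a (chr11:99024190-99024389 on the minus strand) of mitosis, Orc1 (chr4:108579254-108579453 on the plus strand) of replication, Hells (chr19:38930790-38930989 on the plus strand), which fell with them, and Tdrd9 (chr12:111971359-111971558 on the plus strand) of silencing, chosen after their motifs were seen.
Cdk1: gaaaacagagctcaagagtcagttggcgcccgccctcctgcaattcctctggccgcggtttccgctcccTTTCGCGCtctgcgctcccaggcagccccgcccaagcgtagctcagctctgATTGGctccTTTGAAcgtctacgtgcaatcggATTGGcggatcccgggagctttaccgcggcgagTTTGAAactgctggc
Top2a: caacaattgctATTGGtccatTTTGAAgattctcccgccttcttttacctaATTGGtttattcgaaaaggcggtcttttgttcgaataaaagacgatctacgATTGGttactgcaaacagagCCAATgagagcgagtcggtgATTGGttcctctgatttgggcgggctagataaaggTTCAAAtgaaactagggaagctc
Orc1: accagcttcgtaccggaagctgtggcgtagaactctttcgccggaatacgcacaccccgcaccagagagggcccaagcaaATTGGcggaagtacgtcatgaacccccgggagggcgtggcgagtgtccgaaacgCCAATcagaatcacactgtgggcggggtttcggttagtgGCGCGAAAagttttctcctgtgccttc
Hells: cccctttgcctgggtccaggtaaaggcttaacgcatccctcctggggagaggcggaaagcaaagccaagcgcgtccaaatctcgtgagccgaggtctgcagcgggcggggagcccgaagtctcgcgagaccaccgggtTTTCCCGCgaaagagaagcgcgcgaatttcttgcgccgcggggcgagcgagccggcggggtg
Tdrd9: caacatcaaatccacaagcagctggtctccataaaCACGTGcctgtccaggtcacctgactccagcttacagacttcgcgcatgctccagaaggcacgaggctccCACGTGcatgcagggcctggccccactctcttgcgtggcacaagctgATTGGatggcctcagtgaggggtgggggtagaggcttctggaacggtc
Cdk1 holds 2 CHR elements, 2 CCAAT boxes and 1 E2F core in this stretch, and Top2a 2 CHR elements and 5 CCAAT boxes. Orc1 holds 1 E2F core and 2 CCAAT boxes, Hells 1 E2F core, and Tdrd9 2 E-boxes and 1 CCAAT box.

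Inhibitors of the cell cycle did not move as a group: of 15 tested, 3 were higher and 7 lower (median -0.27, or 2.40 with ERCC totals). Cdkn1c, the p57 inhibitor and an imprinted gene, was at 19.6 and 25.7 RPM in GSCs, 156 and 122 RPM at E16 and 224 and 246 RPM at E17 (2.85 ± 0.16, adjusted p = 1.9e-11). Rbl2, the pocket protein p130 of resting cells, was at 0.272 and 0.748 RPM in GSCs and 9.25 to 11.4 RPM in fetal cells (4.02 ± 0.64, adjusted p = 1.4e-05). Its relative Rbl1 (p107) was lower (-2.20 ± 0.36, adjusted p = 2.1e-05), as was the p21 gene Cdkn1a (-2.14 ± 0.34, adjusted p = 1.7e-05). Cdkn1b (p27, 0.27 ± 0.48, adjusted p = 0.62) and Rb1 (-0.11 ± 0.16, adjusted p = 0.56) did not pass the test.

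Of the D-type cyclin and MYC list, 2 of 13 were higher and 7 lower, with a median of -0.56 (2.07 with ERCC totals), and 1 was higher when any 1 GSC or E17 library was left out. Mycn, the MYC gene of stem and progenitor cells, was at 86 and 129.8 RPM in GSCs, 4.97 and 1.76 RPM at E16 and 2.89 and 3.66 RPM at E17 (-5.19 ± 0.27, adjusted p = 4.7e-12). Ccnd2, a G1 cyclin of spermatogonia, was at 208 and 203 RPM in GSCs and 12.9 to 23 RPM in fetal cells (-3.68 ± 0.15, adjusted p = 1.9e-13) and Ccnd1 at 52.5 and 49.8 RPM in GSCs and 5.96 to 15.7 RPM in fetal cells (-2.67 ± 0.24, adjusted p = 8.3e-09). Their kinase partner Cdk4 was slightly higher (0.45 ± 0.11, adjusted p = 0.00076).

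Genes of undifferentiated spermatogonia were split. Of 30 tested (33 listed), 9 were higher and 18 lower, with a median of -0.90 (1.74 with ERCC totals). Zbtb16, the self-renewal factor PLZF, was at 100.2 and 103 RPM in GSCs, 2.98 and 4.93 RPM at E16 and 4.62 and 4.19 RPM at E17 (-4.70 ± 0.23, adjusted p = 1.6e-12). The GDNF receptor gene Gfra1 was at 139 and 124 RPM in GSCs, 8.45 and 4.22 RPM at E16 and 15 and 15.7 RPM at E17 (-3.90 ± 0.20, adjusted p = 3.2e-12). Its partner Ret was at 103 and 94.4 RPM in GSCs, 14.4 and 19.7 RPM at E16 and 28.9 and 37.7 RPM at E17 (-2.17 ± 0.18, adjusted p = 3.6e-09). Etv5, an ETS factor induced by GDNF and FGF, was at 61.5 and 52.8 RPM in GSCs and 6.46 to 13.6 RPM in fetal cells (-2.84 ± 0.23, adjusted p = 1.8e-09). None of these 4 overlapped between groups.

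Nanos2 and Nanos3, translational regulators of germ cells, were both lower: Nanos2 was at 12.5 and 10.2 RPM in GSCs and 0 to 1.49 RPM in fetal cells (-4.10 ± 0.62, adjusted p = 9e-06) and Nanos3 at 66.7 and 50.1 RPM in GSCs and 0.578 to 4.71 RPM in fetal cells (-4.54 ± 0.33, adjusted p = 4e-10). Nanos2 has 1 exon and Nanos3 has 2, and Sox3 (-2.97 ± 0.23, adjusted p = 1e-09), a further member with 1 exon, was lower as well. On the other side, the surface protein Thy1 was at 6.26 and 3.99 RPM in GSCs and 54.2 to 85 RPM in fetal cells (3.52 ± 0.26, adjusted p = 5.2e-10). Utf1, a chromatin factor of stem cells, was at 9.53 and 9.22 RPM, then 359 and 380.2 RPM at E16 and 215 and 246 RPM at E17 (4.82 ± 0.17, adjusted p = 2.6e-14). T (brachyury), a T-box factor, had 3 counts in GSCs and was at 50.9 to 55.5 RPM in fetal cells, a ratio of 136 (exact 95% counting interval 46.1 to 661).

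Differentiating spermatogonial genes were lower in 7 of 10 and higher in 1, with a median of -1.08 (1.56 with ERCC totals). The paired bHLH factors Sohlh1 and Sohlh2 differed in direction: Sohlh1 was at 66.4 and 51.3 RPM in GSCs and 257 to 323 RPM in fetal cells (2.15 ± 0.14, adjusted p = 7.7e-11). Sohlh2 was at 181 and 189.9 RPM in GSCs and 6.69 to 14.1 RPM in fetal cells (-4.18 ± 0.18, adjusted p = 3.3e-13).

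The list of GDNF, FGF and ERK signalling holds receptors, Gfra1 and Ret among them, as well as targets. Of 20 tested, 10 were lower and 2 higher, with a median of -0.93 (1.69 with ERCC totals). Gfra1, Ret and Etv5 are counted in the list of undifferentiated spermatogonia too. Dusp6, a phosphatase that ERK induces, was at 24.2 and 31.6 RPM in GSCs and 0.523 to 5.96 RPM in fetal cells (-3.61 ± 0.38, adjusted p = 9.3e-08). Spred1, a feedback inhibitor, was at 102 and 116 RPM in GSCs, 18.4 and 18.3 RPM at E16 and 31.2 and 35.6 RPM at E17 (-2.27 ± 0.17, adjusted p = 4.4e-10). Egr1, an immediate early gene of the same pathway, had a log2 fold change of -2.23 ± 0.18 (adjusted p = 2.8e-09). The 2 higher members, Etv1 and Fosl1, were under 10 RPM in every library, and 1 of the 2 calls was lost when either GSC library, the second E16 library or the first E17 library was left out.

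Pluripotency genes were higher in 12 of 20 tested and lower in 4 (2 without the second GSC library), with a median of 1.19 (3.83 with ERCC totals). Pou5f1 (OCT4), the core factor, was at 5.45 and 5.23 RPM in GSCs, 108 and 122 RPM at E16 and 93 and 90.01 RPM at E17 (4.12 ± 0.22, adjusted p = 7.5e-12). Dppa4, a chromatin protein of early embryos, was at 26.4 and 28.9 RPM in GSCs, 539.7 and 469 RPM at E16 and 542 and 545 RPM at E17 (4.10 ± 0.14, adjusted p = 1.3e-14). Dppa3, which protects methylation in the egg and marks germ cells, was at 1.09 and 2.99 RPM in GSCs, 43.7 and 86.9 RPM at E16 and 17.9 and 23.5 RPM at E17 (4.002 ± 0.42, adjusted p = 7.9e-08), with no overlap with GSCs in any fetal library.

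The partner factor Nanog had 3 counts in GSCs and was at 5.28 to 8.9 RPM in fetal cells, a ratio of 17.5 (exact 95% counting interval 5.7 to 87.3). Prdm14 had 1 count and was at 6.96 to 12 RPM, a ratio of 71.5 (exact 95% counting interval 12.5 to 2859), and the RNA-binding protein gene L1td1 had 2 counts and was at 7.39 to 23.1 RPM, a ratio of 63.8 (exact 95% counting interval 17.3 to 532). Trim71, a regulator of early development, was the member with the largest fall (-3.59 ± 0.65, adjusted p = 6.3e-05).

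Of the Nodal and activin list, 4 of 13 were higher and 6 lower, with a median of -0.51 (2.15 with ERCC totals). The co-receptor gene Tdgf1 (Cripto) had 3 counts in GSCs and was at 11 to 16.4 RPM in fetal cells, a ratio of 35.9 (exact 95% counting interval 12 to 177), and the Nodal pathway factor Foxh1 was at 2.18 and 0.249 RPM in GSCs and 11.6 to 20.4 RPM in fetal cells (3.59 ± 0.57, adjusted p = 1.4e-05). The signal transducer Smad3 was lower (-2.81 ± 0.36, adjusted p = 9.9e-07). Of 17 genes of fetal male germ cells, 7 were higher and 4 lower (median 0.16, or 2.82 with ERCC totals). Among them Dmrt1, the DM domain factor of male germ cells, was at 568 and 572 RPM in GSCs, 33.8 and 23.2 RPM at E16 and 34.7 and 32.4 RPM at E17 (-4.36 ± 0.13, adjusted p = 1.4e-15). Nanos2 and Nanos3, given above with undifferentiated spermatogonia, are lower members of this list too, and Tdgf1 is a higher one.

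Meiotic prophase genes were higher in 7 of 32 tested and lower in 16, with a median of -0.67 (1.97 with ERCC totals). Spo11, the enzyme that cuts DNA to start recombination, was at 0 and 0.997 RPM in GSCs, 38.3 and 15.1 RPM at E16 and 105 and 106 RPM at E17 (6.39 ± 0.51, adjusted p = 1.7e-09). Rnf212, a crossover factor, was at 10.9 and 11 RPM in GSCs, 67.6 and 75 RPM at E16 and 98.8 and 112 RPM at E17 (2.85 ± 0.20, adjusted p = 3.8e-10). In the other direction, Tex11, an X-linked crossover factor, was at 99.4 and 115 RPM in GSCs and 12 to 16.4 RPM in fetal cells (-3.09 ± 0.18, adjusted p = 2.8e-11), and the synaptonemal complex genes Sycp1 (-2.79 ± 0.20, adjusted p = 4.6e-10), Syce2 (-2.59 ± 0.12, adjusted p = 6.5e-13) and Sycp3 (-1.35 ± 0.13, adjusted p = 1.4e-08) were all lower.

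Cohesin genes, the theme of the series, were lower in 14 of 21 and higher in 0 (2 when scaled by the total of gene counts), with a median of -0.83 (1.85 with ERCC totals). Stag3, the germline cohesin subunit, was at 385 and 420.4 RPM in GSCs, 411 and 464 RPM at E16 and 535 and 515 RPM at E17 and was not called (0.12 ± 0.11, adjusted p = 0.35). The kleisin gene Rad21 was not called either (0.15 ± 0.10, adjusted p = 0.18), with 524 and 595 RPM in GSCs and 592 to 770.4 RPM in fetal cells. Smc1b, the meiotic SMC subunit, was at 295 and 294 RPM in GSCs, 78.5 and 73.9 RPM at E16 and 98.2 and 85.3 RPM at E17 (-1.95 ± 0.12, adjusted p = 2.8e-11), Stag1 at 167 and 185 RPM in GSCs and 90.7 to 104 RPM in fetal cells (-1.004 ± 0.12, adjusted p = 6.2e-07), and Cdca5 (sororin), which keeps cohesin on chromatin in G2, at 83.6 and 72 RPM in GSCs and 7.74 to 14.4 RPM in fetal cells (-2.92 ± 0.21, adjusted p = 4.1e-10).

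The mitochondrial genome gave 8.82% to 10.96% of gene counts in all 6 libraries, but its 13 protein genes did not move together: 2 were higher and 6 lower, with a median of -0.08 (2.57 with ERCC totals). Scaled by the total of gene counts, 5 were higher and 5 lower. COX1, a catalytic subunit of cytochrome c oxidase, was at 3821 and 4075 RPM in GSCs, 22212 and 20831 RPM at E16 and 27511 and 31026 RPM at E17 (2.53 ± 0.11, adjusted p = 3.5e-13). COX3, of the same enzyme, was at 26715 and 28045 RPM in GSCs, 26039 and 26502 RPM at E16 and 30119 and 31685 RPM at E17 and was not called (-0.08 ± 0.09, adjusted p = 0.45). The difference between these subunits of 1 complex was larger than the spread of either within a group.

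Of the ATP synthase subunits, ATP6 was at 22515 and 27821 RPM in GSCs, 14347 and 13802 RPM at E16 and 11169 and 9734 RPM at E17 (-1.19 ± 0.10, adjusted p = 3.7e-09). ATP8, which overlaps it, was at 13.6 and 13.5 RPM in GSCs and 0 to 2.82 RPM in fetal cells (-3.27 ± 0.52, adjusted p = 1.5e-05). ND6, the protein gene on the opposite strand, was at 20.1 and 46.8 RPM in GSCs and 212 to 259 RPM in fetal cells (2.62 ± 0.22, adjusted p = 2.4e-09), but it overlaps ND5 and reads could be counted for either. ND3 (-1.22 ± 0.12, adjusted p = 3.2e-08) and ND4L (-1.42 ± 0.19, adjusted p = 2.5e-06), 2 further complex I subunits, were lower. Mitochondrial transcripts are cut from long precursors, and 3′ counting of neighbours with shared ends is uncertain.

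**Figure D3:**
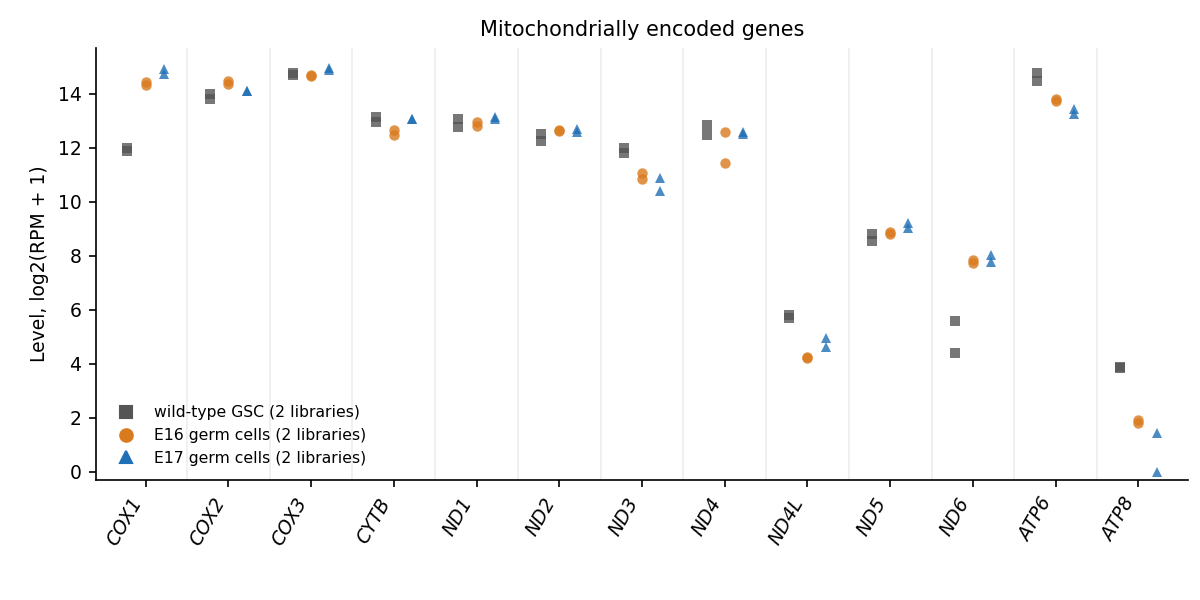
Level of the 13 mitochondrially encoded protein genes in each library, as log2(RPM + 1); each point is 1 library. COX1 and ND6 lie higher in all 4 fetal libraries, ATP6, ATP8, ND3 and ND4L lie lower, and COX3 is level; with ERCC totals as the scale ATP6, ND3 and ND4L lie above GSCs too.

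Nuclear genes of oxidative phosphorylation were lower in 55 of 82 tested and higher in 12, with a median of -0.54 (2.11 with ERCC totals). Ndufa4, a cytochrome c oxidase subunit, was at 635 and 718 RPM in GSCs, 81 and 92.6 RPM at E16 and 63 and 67 RPM at E17 (-3.30 ± 0.11, adjusted p = 1.8e-14). Atp5pb, of the ATP synthase stalk, was at 906 and 924 RPM in GSCs and 81.5 to 161 RPM in fetal cells (-3.02 ± 0.13, adjusted p = 3.3e-13). Mitochondrial ribosomal protein genes were lower in 42 of 78 and higher in 14 (median -0.46, or 2.18 with ERCC totals), with 9 higher when the second GSC library was left out, but Mrpl23 was at 96.1 and 95.7 RPM in GSCs and 873 to 1109.8 RPM in fetal cells (3.21 ± 0.14, adjusted p = 5.1e-13).

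Cytoplasmic ribosomal protein genes split evenly, 29 of 80 higher and 29 lower, with a median of 0.07 (2.69 with ERCC totals). The 2 fetal ages differed here: against GSCs, 52 were higher and 14 lower at E16 and 11 were higher and 42 lower at E17. Compared directly, 76 of 80 were lower at E17 than at E16, where 5.52% of all genes were lower and 1.96% higher. With ERCC totals 79 were higher at E17. On the scale used here the median of E17 over E16 was -0.88, and it ran from -1.04 to -0.707 without 1 library in turn. Rps4x was at 409 and 387 RPM in GSCs, 3795 and 3760.04 RPM at E16 and 2764 and 2722 RPM at E17 (2.87 ± 0.11, adjusted p = 7.5e-14). Rpl22 was at 1806 and 1837 RPM in GSCs and 307 to 344 RPM in fetal cells (-2.61 ± 0.10, adjusted p = 5.2e-14). Many ribosomal protein genes have processed pseudogenes that could take or give reads.

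Glycolysis genes were higher in 8 of 21 and lower in 4 (median 0.40, or 3.003 with ERCC totals). Pfkp, a phosphofructokinase, was at 8.98 and 11 RPM in GSCs and 39.3 to 86.3 RPM in fetal cells (2.48 ± 0.24, adjusted p = 2.2e-08), Ldha, the lactate dehydrogenase, at 58.5 and 54.6 RPM in GSCs and 176 to 201 RPM in fetal cells (1.61 ± 0.14, adjusted p = 4.9e-09). Pkm, the pyruvate kinase, was at 301 and 265 RPM in GSCs and 749 to 809.6 RPM in fetal cells (1.31 ± 0.11, adjusted p = 3.2e-09). Slc16a1, a lactate transporter, was lower (-2.44 ± 0.19, adjusted p = 1e-09). In the pentose phosphate pathway, 2 of 8 were higher (1 without the second GSC or the second E17 library) and 5 lower (median -0.99, or 1.66 with ERCC totals): Tkt, a transketolase, was at 24.2 and 26.2 RPM in GSCs, 353 and 385 RPM at E16 and 354 and 356 RPM at E17 (3.70 ± 0.15, adjusted p = 9.6e-14), while G6pdx, the entry enzyme, was at 39.8 and 32.9 RPM in GSCs and 8.8 to 10.9 RPM in fetal cells (-2.02 ± 0.25, adjusted p = 6.1e-07).

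Of cholesterol synthesis, 8 of 22 genes were lower and 1 higher (median -0.24, or 2.43 with ERCC totals), and the higher count was 0 to 3 when single libraries were left out (0 without the second GSC or the second E17 library, 3 without the first E16 library) and 4 when scaled by the total of gene counts. Amino acid response and serine synthesis genes were higher in 6 of 18 and lower in 7 (median -0.11, or 2.55 with ERCC totals). Asns, the asparagine synthetase, was at 63.7 and 67 RPM in GSCs and 307 to 343 RPM in fetal cells (2.20 ± 0.12, adjusted p = 1.1e-11). Ddit4, an inhibitor of mTORC1, was at 51.7 and 41.9 RPM in GSCs and 0.497 to 5.76 RPM in fetal cells (-4.29 ± 0.32, adjusted p = 7.7e-10).

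Genes of the list of S100 proteins, annexins, galectins, keratins and other cytoskeletal genes were higher in 13 of 20 and lower in 2 (median 0.86, or 3.51 with ERCC totals). The lower count fell when any 1 GSC or E17 library was left out. Krt18, a simple epithelial keratin, was at 4.08 and 2.74 RPM in GSCs, 98.9 and 82.4 RPM at E16 and 150.3 and 150.2 RPM at E17 (4.95 ± 0.24, adjusted p = 1.4e-12). Its pairing partner Krt8 had 1 count in GSCs and was at 15.4 and 13.4 RPM at E16 and 37 and 32.4 RPM at E17, a ratio of 176 (exact 95% counting interval 31.3 to 7004). Lgals3, a galectin, was at 0.817 and 0.748 RPM in GSCs and 32.8 to 38.7 RPM in fetal cells (5.32 ± 0.39, adjusted p = 5.8e-10). These genes are also expressed by supporting and connective tissue cells, whose summed marker levels are given above, and the part of those cells was not tested.

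Imprinted genes were higher in 15 of 31 and lower in 7 (median 0.86, or 3.48 with ERCC totals). Grb10, a growth restrainer, was at 3.54 and 4.98 RPM in GSCs, 221 and 231 RPM at E16 and 314 and 287 RPM at E17 (5.77 ± 0.20, adjusted p = 1.7e-14). Meg3, the noncoding RNA of the Dlk1-Dio3 region, was at 3.54 and 2.24 RPM in GSCs, 76 and 101 RPM at E16 and 125 and 126 RPM at E17 (5.05 ± 0.27, adjusted p = 7.2e-12). Mirg of the same region, with 1 count in GSCs, was at 12.9 to 38.2 RPM, a ratio of 192 (exact 95% counting interval 34.1 to 7612). Both overlap microRNA genes. H19 was at 52 and 43.4 RPM in GSCs, 0.994 and 3.52 RPM at E16 and 11 and 12.6 RPM at E17 (-3.27 ± 0.28, adjusted p = 5.5e-09). Its neighbour Igf2 was at 46 and 62.8 RPM in GSCs and 14.4 to 32.4 RPM in fetal cells (-1.41 ± 0.22, adjusted p = 1.1e-05). Both lay below GSCs in all 4 fetal libraries.

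Of 15 retinoic acid genes tested, 8 were higher and 4 lower (median 0.65, or 3.30 with ERCC totals). Aldh1a2, which makes retinoic acid, was at 13.3 and 11.7 RPM in GSCs and 98.6 to 133 RPM in fetal cells (2.99 ± 0.19, adjusted p = 8.2e-11). Cyp26b1, which degrades it in the fetal testis, had 1 count in GSCs and was at 2.48 and 3.52 RPM at E16 and 12.7 and 9.94 RPM at E17, a ratio of 50.7 (exact 95% counting interval 8.73 to 2037). The receptor gene Rara was lower (-3.08 ± 0.44, adjusted p = 4.5e-06). In the fetal testis both enzymes are also known from somatic cells.

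Of 20 Polycomb genes, 4 were higher and 13 lower (median -0.78, or 1.88 with ERCC totals). The paired methyltransferase genes parted: Ezh1 was at 66.2 and 73 RPM in GSCs, 272 and 327 RPM at E16 and 245 and 253 RPM at E17 (1.84 ± 0.14, adjusted p = 6.6e-10) and Ezh2 at 72.7 and 79.99 RPM in GSCs, 31.8 and 29.9 RPM at E16 and 57.2 and 36.6 RPM at E17 (-1.15 ± 0.18, adjusted p = 1.5e-05). In neither did the groups overlap. Ezh2 is known for dividing cells and Ezh1 for resting ones.

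The p53 family also parted, in a list with 6 of 15 higher and 7 lower (median -0.33, or 2.31 with ERCC totals). The share higher in that list, 40%, is near the 41.1% of all genes. Trp53 was at 60.2 and 71 RPM in GSCs, 5.47 and 7.04 RPM at E16 and 1.16 and 3.14 RPM at E17 (-4.25 ± 0.27, adjusted p = 5.9e-11). Trp63, the family member that guards oocytes, had 2 counts in GSCs and was at 24.4 and 21.8 RPM at E16 and 27.2 and 20.4 RPM at E17, a ratio of 89.1 (exact 95% counting interval 24.3 to 741). Trp73 had no count in GSCs and was at 9.15 to 16.2 RPM, at least 15.3-fold higher. Perp, a p63 and p53 target of cell junctions, was at 1.36 and 0.249 RPM in GSCs, 31.8 and 30.3 RPM at E16 and 75.1 and 63.3 RPM at E17 (5.67 ± 0.40, adjusted p = 2.6e-10). Of 12 interferon genes, 5 were higher and 3 lower (median 0.58, or 3.17 with ERCC totals), and without the first E16 library 8 were higher. With all libraries, 5 of 12 is 41.7%, near the 41.1% of all genes. Oasl2 was at 98.3 and 95.9 RPM in GSCs and 3.17 to 9.94 RPM in fetal cells (-4.20 ± 0.25, adjusted p = 2.7e-11).

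Hox genes, the transcription factors of the body axis, went in both directions. Of 39 Hox genes 18 were tested, and 9 were higher and 8 lower (median 0.69, or 3.30 with ERCC totals), or 5 lower without the second GSC library. Hoxa4 was at 0.272 and 0.748 RPM in GSCs and 17.4 to 30.6 RPM in fetal cells (5.33 ± 0.50, adjusted p = 1.6e-08). Hoxb7 was at 75.1 and 63.8 RPM in GSCs and 13.4 to 24.6 RPM in fetal cells (-1.94 ± 0.23, adjusted p = 3.4e-07) and Hoxb13 at 26.1 and 25.9 RPM in GSCs and 1.49 to 6.8 RPM in fetal cells (-3.18 ± 0.35, adjusted p = 1.6e-07). All 8 lower genes were of the Hoxb cluster, where 1 of 10 tested was higher, and all 8 tested genes of the other clusters were higher. This split was noticed after the values were seen and was not tested. Of the 39 genes, 15 had no count in GSCs. A gene at or near 0 in GSCs passes the filter on low counts only through the fetal libraries and can then hardly be lower. The part of the filter in this split was not tested. With ERCC totals Hoxb7 was at 0.66 and Hoxb13 at -0.59. Of 32 Rhox genes, an X-linked homeobox cluster of reproductive tissue, 12 were tested, and 17 of the 32 had no count in GSCs, so the same limit holds. Of the 12, 8 were higher and 2 lower (median 1.74, or 4.39 with ERCC totals). On the lower side Rhox13 was at 133 and 129 RPM in GSCs and 42.2 to 49.1 RPM in fetal cells (-1.68 ± 0.14, adjusted p = 4.8e-09).

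**Figure D4:**
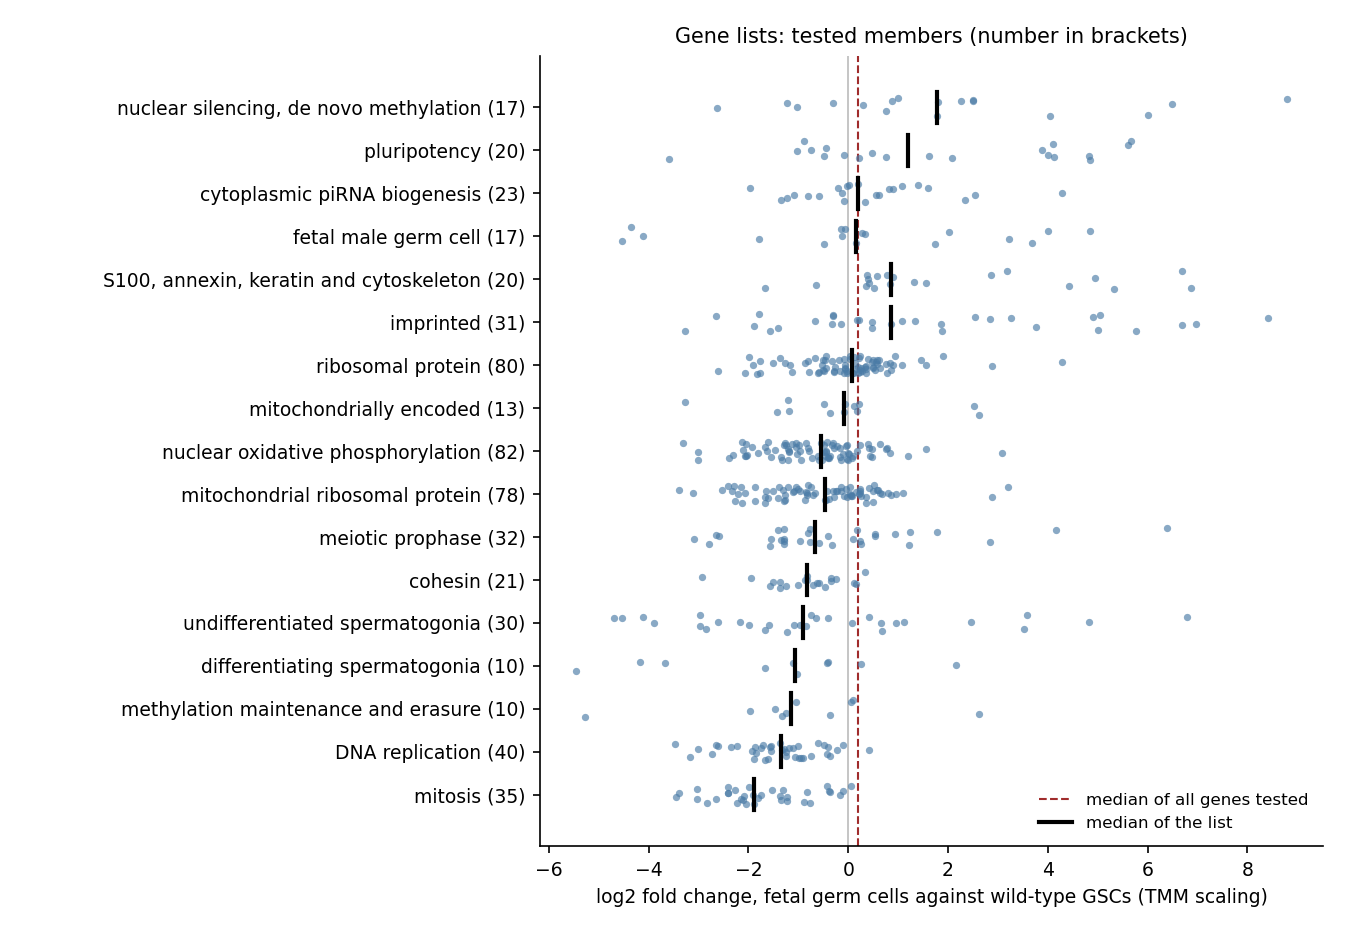
log2 fold change, fetal germ cells against wild-type GSCs, of every tested member of 17 gene lists (points), with the median of each list (black bar) and the median of all 14792 genes (dashed line, 0.20). Nuclear silencing and pluripotency lists lie to the right and mitosis, replication and methylation maintenance to the left on this scale; with ERCC totals the medians of those 3 lower lists are 0.72, 1.30 and 1.47, against 2.84 for all genes.

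The 2 fetal ages were also compared with each other: 290 of 14792 genes were higher at E17 and 816 lower. This balance depended on the scale, since with the total of gene counts 1346 were higher and 282 lower and with ERCC totals 14590 and 2, and leaving out single libraries gave 59 to 1535 higher and 301 to 1909 lower. Beside the ribosomal proteins 40 of 82 genes of oxidative phosphorylation and 23 of 78 mitochondrial ribosomal protein genes were lower at E17. Scaled by the total of gene counts, those 2 counts were 15 and 6, and that of ribosomal proteins 66, while with ERCC totals 82 and 78 of these genes were higher at E17. Without the first or the second E17 library the 2 counts were 16 and 9 or 20 and 8. Dnmt3l was higher than in GSCs by 9.11 on the log2 scale at E16 and by 8.49 at E17, Cdk1 had -2.76 and -3.32, and Pou5f1 4.46 and 3.78. Dppa3 differed more, with 5.01 at E16 and 2.99 at E17, as did Spo11, with 5.54 and 7.24. These pairs of values share the GSC libraries as control.

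The direction of change was also related to the number of exons. Among 8380 genes at 20 RPM or more in the higher group, 67 have 1 exon, and of these 5 were higher and 58 lower in fetal cells, with a median log2 fold change of -2.05 (-1.89 at E16, -2.07 at E17 and 0.58 with ERCC totals). The median was -0.61 for 2 to 4 exons, -0.40 for 5 to 8, -0.21 for 9 to 16, -0.04 for 17 to 32 and 0.33 for 33 or more. In that last class 47.5% of 402 genes were higher and 29.1% lower, against 31.3% and 45.7% over all 8380. Genes share neighbours and pathways and are not replicates, so no p is given. Falls of single-exon genes such as Nanos2, Sox3 and Sephs2 stand beside this shift, whose part in them was not tested.

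**Figure D5:**
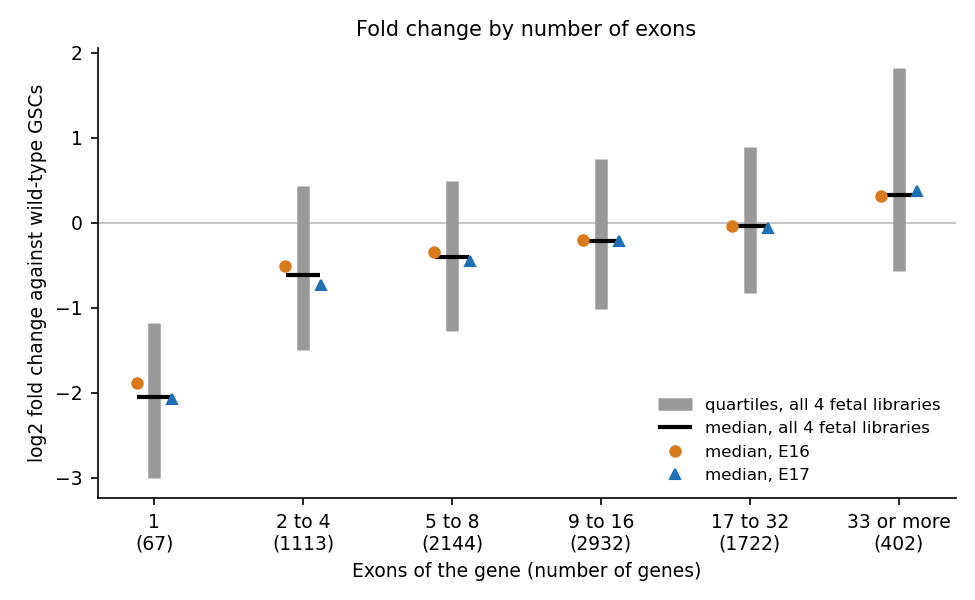
log2 fold change of genes at 20 RPM or more in the higher group (fetal germ cells or GSCs), by number of exons: medians over all fetal libraries (black), E16 (circles) and E17 (triangles), with quartiles (grey bars). The medians run from -2.05 with 1 exon to 0.33 with 33 or more; with ERCC totals they run from 0.58 to 2.99.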

How the data were processed

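SC3-seq, a 3′-end RNA-seq of amplified cDNA, was read in 6 of the 12 libraries. The deposited tables hold the authors' raw counts per gene. The submitters' processing notes name Salmon 1.4.0, cutadapt 1.18, TopHat2 2.1.1, HTSeq 0.9.1 and GRCm38.p6. What each of them was used for, and whether strand was used in counting, is not stated there. Replicate numbers follow the sample titles, and for the GSC libraries the deposited files carry the opposite numbers.

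Spike-in and transgene rows were left out, as were 10 genes with no value in a table. Of 35642 genes, 35564 matched RefSeq by identifier and 26032 had a count. Exon numbers are of the GENCODE basic annotation of that assembly. RPM was computed on reads of non-mitochondrial genes. Counts were tested with edgeR 4.0.16 (TMM scaling, filterByExpr by group, quasi-likelihood, 6 libraries in 1 fit), and the fetal value is the mean of E16 and E17. DESeq2 1.42.0, limma 3.58.1, other scalings and filters, a replicate block and leaving out each library were alternatives. R 4.3.3 and Python 3.11.15 were used, and the tests were tried on simulated counts.

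Genes named are the 15 largest rises and falls among called genes whose libraries do not overlap between groups, at 20 RPM or more in the higher group and without unnamed, mitochondrial or ribosomal protein genes, and members of 43 lists. Some genes this rule names are not reported here. Libraries, lists and named members were chosen with earlier results of these data known. Lists without a described result were read for checks only.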

Additional observations from a re-analysis of the deposited data

Results flagged for a closer look

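Some described genes differed between E17 and E16 by the edgeR test (adjusted p under 0.05), as log2 fold changes of E17 over E16 with n = 2 libraries each. Dppa3, the maternal factor also expressed in early germ cells, was lower at E17 (-2.02 ± 0.34, adjusted p = 0.00082). Of the silencing genes, Morc1 was lower (-1.21 ± 0.14, adjusted p = 1.4e-05), and so were Piwil4 (-0.89 ± 0.12, adjusted p = 0.00012), Dnmt3l (-0.62), Spocd1 (-0.46) and Tdrd9 (-0.45), although all remained far above GSCs at both ages. Scaled by the total of gene counts, which moves the median gene from 0.0088 to 0.336, Dnmt3l (-0.29), Spocd1 (-0.13) and Tdrd9 (-0.13) were not called, while Morc1 (-0.88), Piwil4 (-0.57) and Dppa3 (-1.68) were. Utf1 (-1.02), Pou5f1 (-0.67), Trp53 (-1.85), Birc5 (-1.28), Nme8 (-0.82) and Ezh1 (-0.61) were also lower at E17.

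Spo11, which starts meiotic recombination, was higher at E17 (1.70 ± 0.31, adjusted p = 0.0017), as were H19 (1.91 ± 0.49, adjusted p = 0.022), Klf9 (2.40 ± 0.71, adjusted p = 0.043) and Col6a4 (0.83). The beta globin gene Hbb-bs was lower at E17 (-2.17), and so were ATP6 (-0.76) and ND3 (-0.63) of the mitochondrial genome, Ndufa4 (-0.76) of the respiratory chain and Rps4x (-0.80) of the ribosome. Scaled by the total of gene counts, 10 of the 17 genes given here as lower at E17 were not called, and none of the 21 changed sign. With that scale 1346 of all genes were higher and 282 lower. With ERCC totals 14590 were higher and 2 lower and the median gene was at 3.03, so these differences are relative to the bulk.

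The 5 rows for transgene sequences are listed apart from genes and were left out of the analysis. Of these, 2 had counts only in fetal or only in GSC libraries. The row named BGH_pA had at least 36 counts in every fetal library and 0 in both GSC libraries. That named RBG_pA had at least 1022 counts in both GSC libraries and 0 in every fetal library. EF1a_pA had 125 and 198 counts in GSCs (34.0 and 49.3 RPM) and 30 to 68 in fetal cells (15.7 to 23.9 RPM), also without overlap. SV40_pA had 32 in the second E16 library, 2 in the first GSC library and 0 in the others. The row piggyBac_pA had 0 in all 6.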

How the results depend on the processing

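With ERCC totals as the scale, 13599 genes were higher and 118 lower in fetal cells, 9086 and 919 at E16 and 14510 and 6 at E17, and 14590 were higher and 2 lower at E17 than at E16. On that scale the log2 fold change for the mean of E16 and E17 turned positive for 35 of 162 genes followed one by one. Those lower before were Dazl (0.86), Wt1 (1.14), Hells (0.067), Setdb1 (1.396), Trim28 (1.63), Dnmt1 (0.68), Wdr77 (0.69), Tdrkh (1.29), Top2a (0.55), Mcm7 (1.64), Rbl1 (0.45), Cdkn1a (0.52), Ret (0.45), Spred1 (0.36), Egr1 (0.44), Syce2 (0.053), Sycp3 (1.30), Smc1b (0.70), Stag1 (1.64), ATP6 (1.46), ND3 (1.41), ND4L (1.21), Rpl22 (0.032), Slc16a1 (0.20), G6pdx (0.62), Igf2 (1.24), Ezh2 (1.51), Hoxb7 (0.66) and Rhox13 (0.97). Those not called before were Ddx4 (2.52), Dnmt3b (2.37), Bub1 (2.48), Cenpf (2.57), Rb1 (2.55) and COX3 (2.57). A further 21 kept their direction and lost the call, among them Cdk1, Mki67, Mcm2, Tyms, Orc1 and Etv5. The labels do not state how much ERCC RNA each library received, and the cause was not tested.

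A required change above 1 on the log2 scale left 2097 lower genes in fetal cells, 1933 at E16 and 1920 at E17, and 0 higher and 8 lower between E17 and E16. That last comparison also moved with DESeq2 (138 higher), with all 10 libraries that share the gene list in the fit (503 higher) and with gene totals as the scale (1346 higher, 282 lower). Values close to 0 changed sign with the stricter filter for Ddx4 (0.00047), Cenpf (0.033), Rb1 (0.022) and COX3 (0.048), with gene totals for Ddx4 (0.0054), Cenpf (0.0403), Rb1 (0.028) and COX3 (0.052) and without a filter for Mybl2 (-0.022). Gene totals, and every alternative to the comparison of E17 with E16, were chosen after the data were seen.

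Leaving out each library in turn gave 5428 to 7007 higher and 3992 to 5319 lower genes in fetal cells, 5160 to 6510 higher at E16 and 5100 to 7044 higher at E17. Between E17 and E16 it gave 59 to 1535 higher and 301 to 1909 lower, with 1535 and 1909 when the first E16 library was left out and 59 and 301 when the second E17 library was, and each of the 6 libraries moved the higher count by over 1.5 times. Small counts over lists moved too: 7 fibroblast markers were higher without the second E16 library (6 of the 10 tested with all libraries and 1 that passed the filter only then), 8 interferon genes without the first, 2 pluripotency genes were lower without the second GSC library, and 0 to 3 cholesterol genes were higher. With 1 library left in a group, that library is assumed to vary like the others. Replicate numbers did not pair the libraries: deviations from group means correlated at -0.058, -0.0214 and 0.0323 over 14531 genes, and a replicate block gave 5977 higher and 4658 lower genes and changed no call of a named gene. Counts were also simulated at these depths, with the same spread for every gene, few genes changed, equally up and down, and no shift of scale. There, 70.8% of 96 genes changed by a fold of 2 and 98.97% of 97 changed by a fold of 4 were recovered, with 10 false calls among 13944 genes. In the real comparison most tested genes were called, so these false calls do not measure its error.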
